A study of Mus musculus with 9 samples.

Results

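The data concern 8 genes of vascular growth factor signalling, chosen by name and not by their values among the 27998 genes of the count table: the VEGF receptors Kdr, Flt1 and Flt4, the co-receptors Nrp1 and Nrp2, the angiopoietin receptor Tek with its partner Tie1, and the ligand Vegfa. All 8 were found in the table and described in endothelial-like cells and in the other cell classes of each library. A further list of 39 genes, of ligands, receptor partners, responsive genes and oxygen sensors of the same pathways, was read alongside.

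Whole livers of C57BL/6 mice were digested with collagenase and single cells were profiled by droplet-based sequencing of transcript 3′ ends, 1 library per sample. All mice carried ROSA26-rtTA-IRES-EGFP, a doxycycline-dependent transcription activator released by Cre, and all were fed doxycycline. WT mice (2 libraries) lacked the tetYAP transgene and received doxycycline for 7 days, whereas tetYAP mice were induced for 3 days (YAP3d, 4 libraries) or 7 days (YAP7d, 3 libraries). Per the study's methods Cre was driven by the albumin promoter, so that the transgene is switched on in cells of the hepatocyte lineage and not in endothelial cells. The labels do not say that the libraries of a group came from separate animals, so p-values measure the spread between these libraries, which may be partly technical.

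VEGF-A binds to Kdr and Flt1, which are tyrosine kinases of the endothelial surface; Kdr carries most of the growth, survival and permeability signal, while Flt1 binds the ligand tightly and signals weakly. VEGF-C and VEGF-D act through Flt4, neuropilins present VEGF and class 3 semaphorins to their receptors, and angiopoietins keep vessels quiescent through Tek, which pairs with the orphan receptor Tie1. In the liver these receptors are known from the fenestrated sinusoidal endothelium, where hepatocyte VEGF-A helps to hold the sinusoidal phenotype.

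The promoter windows of 3 receptors that behaved differently in what follows are shown so that their bases can be read beside the values: Flt4, which passed no test, Tie1, which was lower after 7 days, and Nrp2, which passed against YAP3d and not against WT. They are the 250 bases before the start that RefSeq gives for GRCm38.p6, in the direction of transcription, at chr11:49609429-49609678 on the plus strand, chr4:118489850-118490099 on the minus strand and chr1:62703067-62703316 on the plus strand. Capitals mark matches to the SP or KLF motif GGGCGG or its reverse complement CCGCCC.
Flt4: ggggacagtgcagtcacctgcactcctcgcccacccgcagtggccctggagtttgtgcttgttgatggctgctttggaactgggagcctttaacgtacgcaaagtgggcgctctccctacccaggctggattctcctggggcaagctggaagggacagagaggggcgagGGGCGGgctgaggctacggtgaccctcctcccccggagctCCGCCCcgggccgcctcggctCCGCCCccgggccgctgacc
Tie1: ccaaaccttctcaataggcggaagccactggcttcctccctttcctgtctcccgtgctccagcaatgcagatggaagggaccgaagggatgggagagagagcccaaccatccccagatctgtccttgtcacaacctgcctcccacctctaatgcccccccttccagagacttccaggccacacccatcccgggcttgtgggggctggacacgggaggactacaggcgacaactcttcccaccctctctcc
Nrp2: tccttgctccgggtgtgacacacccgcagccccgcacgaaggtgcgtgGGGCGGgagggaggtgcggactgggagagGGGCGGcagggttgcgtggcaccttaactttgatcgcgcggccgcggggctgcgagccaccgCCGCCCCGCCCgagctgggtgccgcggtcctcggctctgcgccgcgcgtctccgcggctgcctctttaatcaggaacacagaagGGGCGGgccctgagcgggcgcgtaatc
The Flt4 window held 3 such matches, the Nrp2 window 5, of which 2 overlap by 1 letter, and the Tie1 window 0. Over all 32851 promoter windows of this length, 32.7% held at least 1. The letters of the TEAD motif GGAATG (in 12.6% of all windows), the ETS motif CCGGAAG (6.91%), the GATA motif AGATAA (9.99%) and the hypoxia response motif ACGTG (16.6%) were searched on both strands, and none occurred in the windows of the 7 receptors. The windows of Kdr, Flt1, Nrp1 and Tek lie partly or wholly inside the annotated span of their gene, and for these only the matches were counted: 2 SP or KLF matches for Kdr, 3 for Flt1, 1 for Nrp1 and 0 for Tek. A match is a property of the letters and not a bound site. Kdr (chromosome 5, 75932827 to 75979072) and Flt1 (chromosome 5, 147561604 to 147726438) lie on the same chromosome, as do Tek (chromosome 4, 94739086 to 94874976) and Tie1 (chromosome 4, 118471191 to 118489849).

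Of 8527 cells kept, 1948 in 4 of 25 clusters were endothelial-like by 13 markers fixed for the class, with none of the 8 genes used for the clustering. All 13 markers were detected in every library. WT libraries held 276 and 502 endothelial-like cells, YAP3d libraries 75, 51, 162 and 771, and YAP7d libraries 24, 23 and 64. As shares of all cells these were 53.0 and 35.5% in WT, 26.7, 11.5, 38.4 and 30.2% in YAP3d, and 4.01, 4.99 and 3.49% in YAP7d. The YAP7d cells differed in further ways that touch each result below. Their median depth was 7403.5, 8292 and 13759.5 UMIs (unique molecular identifiers, each a counted transcript) per cell, against 2384 and 4668.5 in WT and 2317 to 4773 in YAP3d. Cells called dividing made up 66.7, 65.2 and 67.2% of them, against 2.90 and 6.97% in WT and 7.00 to 25.5% in YAP3d. The call needed UMIs of at least 3 listed proliferation genes, or any UMI of Mki67 or Top2a. It was made on raw counts, so deeper cells meet it more easily, and the part of depth in these shares was not tested. The median mitochondrial share of their counts was 2.28, 2.45 and 2.90%, under the 3.04 and 3.89% of WT and the 3.61 to 3.86% of YAP3d, and its part in the results was not tested. Lastly, 94 of the 111 YAP7d cells lay in cluster 23, which held 3 YAP3d cells and 0 WT cells, so that comparisons with YAP7d set cluster 23 against clusters 5, 8 and 9. Summed over the 13 markers the level was 17194 to 22271 CPM (UMIs per 1000000 UMIs of the class) in WT and YAP3d libraries and 9542 to 9795 CPM in YAP7d libraries. Of the 13, 8 were under both WT libraries in every YAP7d library (Stab1, Stab2, Clec4g, Fcgr2b, Oit3, Eng, Dnase1l3 and Gpr182), 4 overlapped (Pecam1, Cdh5, Egfl7 and Emcn) and 1 was above (Lyve1). Clec4g, a lectin of sinusoidal cells, was at 4838 to 6585 CPM in WT and 1085 to 1468 CPM in YAP7d, and Eng, found on endothelium in general, at 1212 to 1679 and 726 to 1004 CPM. Pecam1, a general endothelial adhesion molecule, was at 420 to 460 and 424 to 506 CPM, and Lyve1, a hyaluronan receptor of sinusoidal and lymphatic endothelium, at 351 to 369 and 402 to 559 CPM. Summed macrophage markers in these cells ranged over 121 to 881 CPM in WT and YAP3d and 379 to 804 CPM in YAP7d. Libraries also split by the predicted gene Gm10709, at 3.65 to 11.2 CPM over all cells in both WT libraries and in YAP3d 3 and 4, and at 347 to 611 CPM in YAP3d 1 and 2 and all YAP7d libraries; WT and YAP7d therefore lie wholly on opposite sides of that split, and the part it has in their difference cannot be told apart from the groups. Of all barcodes, 46 occurred in more than 1 library.

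After 7 days of induction 5 of the 7 testable receptors were lower in endothelial-like cells, and none was higher. Tek, Nrp1, Kdr, Flt1 and Tie1 fell by 0.81 to 1.35 on the log2 scale against WT, whereas Flt4 and Nrp2 overlapped WT and did not pass the test. In this comparison 18.4% of all 7468 genes tested were called and 8.74% were called lower (edgeR quasi-likelihood test, Benjamini-Hochberg adjusted p below 0.05). The median log2 fold change of the 7 receptors was -0.85, and that of all genes tested was -0.04. After 3 days 0 of the 7 receptors were called against WT, with a median log2 fold change of -0.01. In that comparison 0% of all genes were called, with 145 at an unadjusted p under 0.05 by edgeR and 0 called by DESeq2. Against YAP3d, 6 of 7 receptors were lower in YAP7d, with 17.1% of all genes called and 8.15% called lower. The comparisons of YAP7d with WT and with YAP3d share the YAP7d libraries and are not independent of each other.

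**Figure D1:**
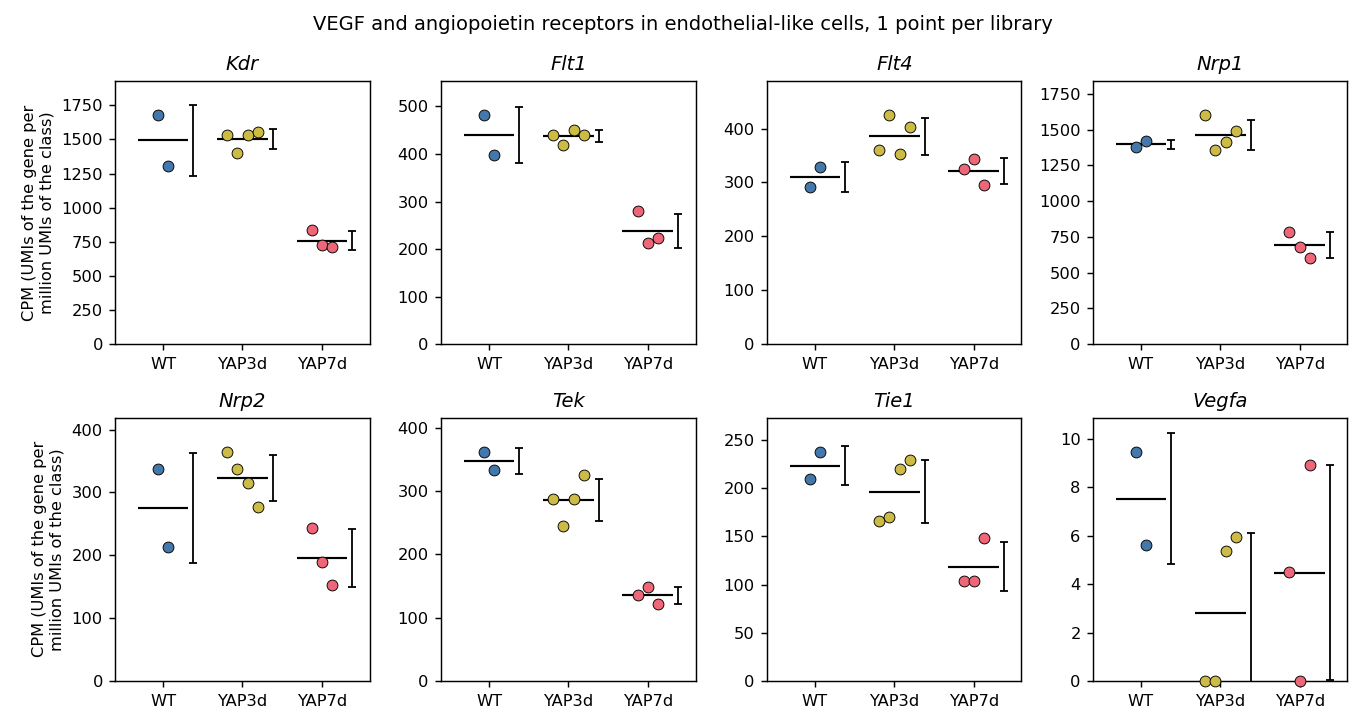
CPM of each of the 8 genes in endothelial-like cells (y axis, UMIs of the gene per 1000000 UMIs of the class) in WT (2 libraries), YAP3d (4) and YAP7d (3), with 1 point per library, a line at the mean and a bar of 1 SD beside it. Kdr, Flt1, Nrp1, Tek and Tie1 sit lower in all 3 YAP7d libraries than in any other library, Flt4 overlaps WT, and Vegfa is at or under 9.46 CPM in every library.

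Kdr, the main signalling receptor for VEGF-A, was at 1677 and 1309 CPM in WT, at 1533, 1398, 1529 and 1553 CPM in YAP3d and at 840, 726 and 713 CPM in YAP7d. The YAP3d libraries lay within the WT range and every YAP7d library lay under all others. Against WT, Kdr fell by 0.95 on the log2 scale in YAP7d (SE 0.15, adjusted p = 0.000498, edgeR) and against YAP3d by 0.94 (SE 0.13, adjusted p = 0.000189). Kdr passed in 23 of 24 alternative analyses of YAP7d against WT. The exception was the fit with a term for Gm10709, where it was lower by 0.83 with an adjusted p of 0.0623. Among the libraries with high Gm10709 alone, Kdr was at 1533 and 1398 CPM in YAP3d and 713 to 840 CPM in YAP7d, and passed the test in that comparison.

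Flt1, the high-affinity VEGF-A receptor with weak kinase signalling, followed the same order. It was at 481 and 398 CPM in WT, 441, 420, 449 and 440 CPM in YAP3d and 280, 212 and 223 CPM in YAP7d. No YAP7d library overlapped another group. Flt1 fell by 0.85 against WT (SE 0.17, adjusted p = 0.00272, edgeR) and by 0.83 against YAP3d (SE 0.15). It did not pass against WT in 6 of 24 alternatives: without dividing cells, where only YAP7d 3 kept the minimum of 10 cells (log2 fold change -0.37, adjusted p = 0.425) and also with all 3 YAP7d libraries entered (-0.42, adjusted p = 0.245), among cells of 4000 to 10000 UMIs (-0.41, adjusted p = 0.288), with cells thinned to 1500 UMIs (-0.58, adjusted p = 0.111), with the term for Gm10709 (-0.77, adjusted p = 0.147) and with endothelial-like cells chosen cell by cell from their own markers in place of clusters (-0.73, adjusted p = 0.0689). Against YAP3d the call of Flt1 was lost in the first 4 of these. The window of 4000 to 10000 UMIs held only 11, 10 and 21 YAP7d cells, against 93 and 290 in WT and 20 to 449 in YAP3d.

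Flt4, the receptor for VEGF-C and VEGF-D, did not share this pattern. It was at 291 and 329 CPM in WT, 361, 425, 353 and 404 CPM in YAP3d and 325, 343 and 295 CPM in YAP7d. YAP7d overlapped WT and lay under all 4 YAP3d libraries, which themselves lay above WT. The log2 fold change of YAP7d was 0.07 against WT (SE 0.17, adjusted p = 0.820, edgeR) and -0.22 against YAP3d (SE 0.14, adjusted p = 0.335), and that of YAP3d against WT was 0.29 (SE 0.16, adjusted p = 0.9996). In none of the 24 alternatives did Flt4 pass against WT, with log2 fold changes of 0.01 to 0.46.

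The difference between Flt4 and the other receptors was tested on the log2 ratio of their CPM within each library, a choice made after the values of Flt4 were seen. The ratio of Flt4 to Kdr was -2.26 ± 0.38 (SD, n = 2) in WT, -1.97 ± 0.18 (SD, n = 4) in YAP3d and -1.24 ± 0.15 (SD, n = 3) in YAP7d. All YAP7d ratios lay above those of both other groups. The difference of YAP7d from YAP3d was 0.73 (exact two-sided permutation p = 0.0286, the smallest that 3 against 4 libraries allow, and 0.0571 after Benjamini-Hochberg adjustment over 6 ratios). Against the WT libraries it was 1.02 (exact permutation p = 0.1, the smallest that 3 against 2 allow, so no such ratio can pass). The ratios to Flt1 and Nrp1 gave the same p against YAP3d, with differences of 0.63 and 0.83. For Nrp2, Tek and Tie1 the exact permutation p were 0.0857, 0.0571 and 0.143. None of the 6 ratios passed after adjustment.

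Nrp1, a co-receptor that presents VEGF-A to Kdr and also binds semaphorins, was at 1375 and 1420 CPM in WT, 1599, 1357, 1415 and 1491 CPM in YAP3d and 786, 681 and 604 CPM in YAP7d. The YAP7d libraries again lay apart from the rest. Nrp1 fell by 0.998 against WT (SE 0.15, adjusted p = 0.000243, edgeR) and by 1.04 against YAP3d (SE 0.13), and it passed in all 24 and all 25 alternatives of these comparisons. Nrp2, the neuropilin known for VEGF-C and lymphatic vessels, was at 337 and 213 CPM in WT, 364, 337, 315 and 277 CPM in YAP3d and 244, 189 and 153 CPM in YAP7d. Here YAP7d overlapped WT but not YAP3d. Nrp2 fell by 0.70 against YAP3d (SE 0.20, adjusted p = 0.0264, edgeR), whereas its log2 fold change against WT was -0.49 (SE 0.23, adjusted p = 0.150). The call against YAP3d was lost in 9 of 25 alternatives: without YAP3d 1, YAP3d 3, YAP7d 2 or YAP7d 3, with adjusted p of 0.0867, 0.0507, 0.0952 and 0.176 in turn, with the term for Gm10709 (0.0629), with cells chosen cell by cell from their markers (0.199), without dividing cells (0.299 with YAP7d 3 alone, 0.154 with all 3 YAP7d libraries) and among cells of 4000 to 10000 UMIs (0.0672).

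Tek, the angiopoietin receptor, showed the largest fall of the 7. It was at 362 and 333 CPM in WT, 288, 245, 288 and 326 CPM in YAP3d and 135, 149 and 121 CPM in YAP7d. All YAP3d libraries were under both WT libraries, with a log2 fold change of -0.28 that did not pass (SE 0.17, adjusted p = 0.9996, edgeR). In YAP7d, Tek fell by 1.35 against WT (SE 0.19, adjusted p = 0.000187) and by 1.07 against YAP3d (SE 0.17). It passed against WT in all 24 alternatives. Against YAP3d it did not pass without dividing cells when YAP7d 3 was the only YAP7d library entered (-0.78, adjusted p = 0.121), but passed with all 3 entered (-0.75, adjusted p = 0.0392), and it did not pass among cells of 4000 to 10000 UMIs (-0.51, adjusted p = 0.192). Tie1, the orphan receptor that pairs with Tek, was at 209 and 238 CPM in WT, 167, 171, 220 and 229 CPM in YAP3d and 104, 104 and 148 CPM in YAP7d. The highest YAP7d library was under the lowest YAP3d library. Tie1 fell by 0.81 against WT (SE 0.23, adjusted p = 0.0243) and by 0.64 against YAP3d (SE 0.21, adjusted p = 0.0472). Its call against WT was lost in 11 of 24 alternatives. These were without WT 1, WT 2, YAP7d 1 or YAP7d 2 (adjusted p of 0.0624, 0.144, 0.0930 and 0.0966), by DESeq2 (0.0547), with the term for Gm10709 (log2 fold change -0.34, adjusted p = 0.677), with cells chosen cell by cell from their markers (0.101), without dividing cells (0.233 with YAP7d 3 alone, 0.0676 with all 3 YAP7d libraries), among cells of 4000 to 10000 UMIs (log2 fold change -0.20, adjusted p = 0.734) and with cells thinned to 1500 UMIs (0.0527). Against YAP3d it passed in 7 of 25 alternatives, and leaving out either WT library, YAP3d 1, YAP3d 3, YAP3d 4, YAP7d 1 or YAP7d 2 ended the call, with adjusted p from 0.0560 to 0.182.

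**Figure D2:**
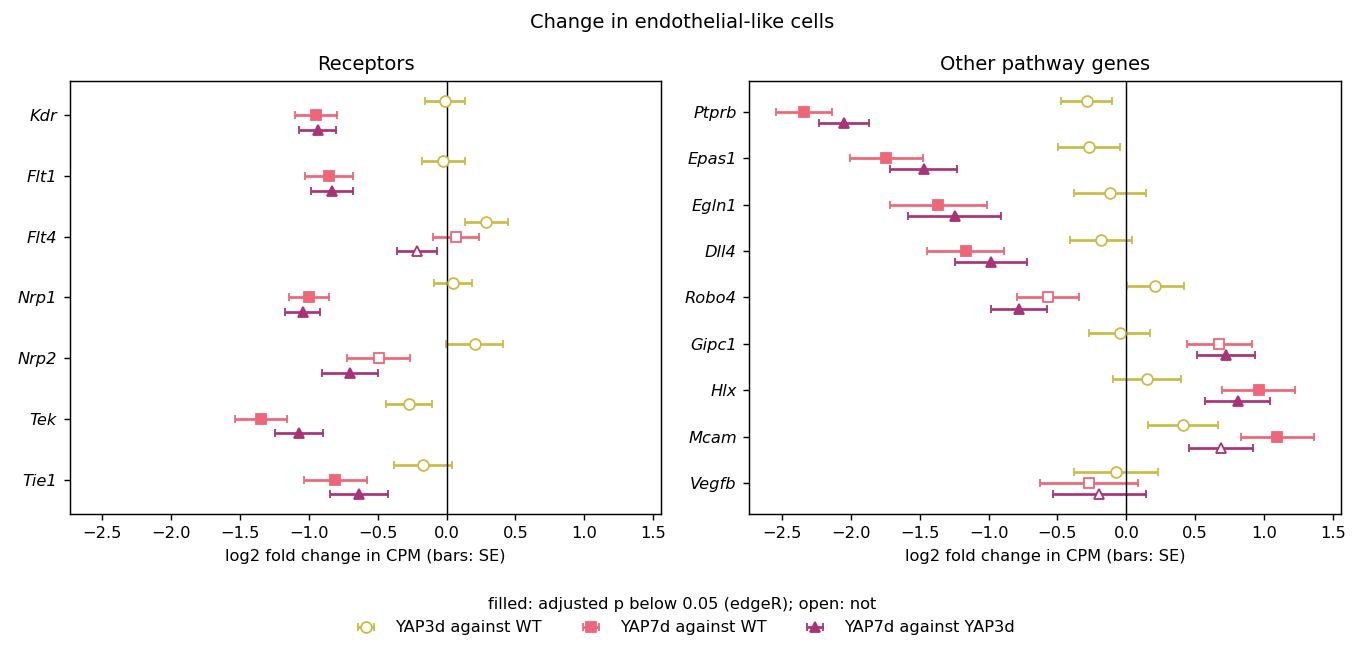
Log2 fold changes in endothelial-like cells (x axis, bars are SE from edgeR) of the 7 testable receptors and of 9 further pathway genes, for 3 comparisons. Filled symbols passed an adjusted p of 0.05; 5 receptors are filled to the left for YAP7d against WT, Flt4 is open at 0.07, and every symbol of YAP3d against WT is open.

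These values are shares of the UMIs of a class, and the group mean of UMIs per cell was not lower in YAP7d for any receptor. UMIs per cell also follow capture and sequencing depth, and the number of transcripts in a cell was not measured. Kdr had 5.14 and 6.03 UMIs per cell in WT, 5.27 to 7.46 in YAP3d and 7.75, 7.00 and 10 in YAP7d, while the total depth per cell rose more. Tek, with the largest fall in CPM, had 1.11 and 1.54 UMIs per cell in WT and 1.25, 1.43 and 1.70 in YAP7d. Flt4 had 0.89 and 1.52 UMIs per cell in WT, 1.22 to 1.94 in YAP3d and 3.00, 3.30 and 4.14 in YAP7d, so that YAP7d lay above both other groups, which overlapped. The rise in depth differed between classes of the same libraries: from WT to YAP7d, with libraries summed, the median went from 3947 to 11567 UMIs in endothelial-like and from 5975 to 17452.5 in macrophage-like cells, but stood at 3032 and 3252 in B cell-like and at 8005 and 8009 in plasmacytoid dendritic-like cells.

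**Figure D3:**
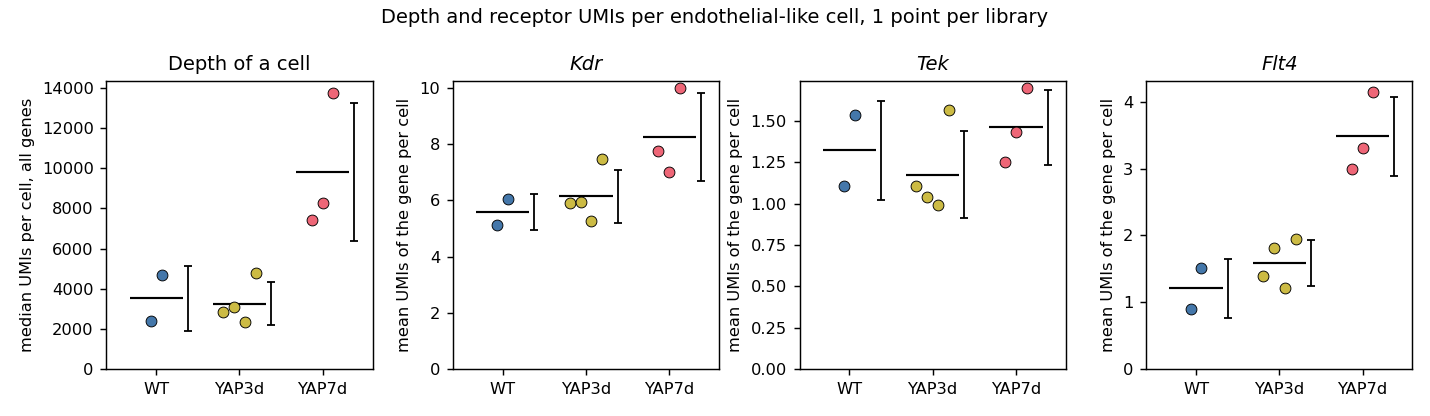
Median UMIs of all genes per endothelial-like cell, and mean UMIs of Kdr, Tek and Flt4 per cell (y axes), with 1 point per library, a line at the mean and a bar of 1 SD. Depth is 7403.5 or more in the YAP7d libraries, Flt4 UMIs per cell are higher there than in any other library, and Kdr and Tek UMIs per cell overlap between YAP7d and YAP3d.

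To compare shares of cells at 1 depth, each cell was thinned to 1500 UMIs. This left out 91 WT and 72 YAP3d cells and 0 YAP7d cells. The share of cells with a Kdr UMI was then 86.3 ± 6.32% (SD, n = 2) in WT, 84.9 ± 3.17% (SD, n = 4) in YAP3d and 61.1 ± 2.87% (SD, n = 3) in YAP7d, against 91.1, 93.2 and 91.5% before thinning. The share with an Nrp1 UMI went from 85.5 to 66.8% between WT and YAP7d, and that with a Flt4 UMI stood at 33.9 and 35.6%. In B cell-like cells, which should lack these receptors, the share with a Kdr UMI before thinning was 8.87% in WT, 14.3% in YAP3d and 0.75% in YAP7d (libraries summed), at median depths of 3032, 3295 and 3252 UMIs. By library this share was 0 and 10.6% in WT, 7.89, 6.25, 0 and 15.8% in YAP3d and 0, 0 and 2.13% in YAP7d. The groups thus overlapped, and the sums were led by WT 2 and YAP3d 4. With the thinned counts summed, Kdr, Nrp1, Tek and Nrp2 passed the test against WT, while Flt1 (adjusted p = 0.111, edgeR) and Tie1 (adjusted p = 0.0527) did not.

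Cells called dividing were read apart, since most YAP7d cells were so called. Deeper cells meet the rule more easily, so the 2 division states were not matched in depth. With the libraries of a group summed, Kdr was at 1413 CPM in non-dividing and 1346 CPM in dividing WT cells, at 1574 and 1310 CPM in YAP3d, and at 766 and 726 CPM in YAP7d, and the exact Poisson 95% intervals of the pair overlapped in WT and in YAP7d. Tek was at 349 and 255 CPM in WT and at 170 and 114 CPM in YAP7d, in the same order. Kdr, Flt1, Nrp1, Nrp2 and Tek were lower in dividing cells in each group, whereas Flt4 was at 314 and 368 CPM in WT, 395 and 400 CPM in YAP3d and 348 and 294 CPM in YAP7d, and Tie1 was at 129 and 135 CPM in YAP7d. Within each division state the receptors other than Flt4 were lower in YAP7d than in both other groups, which is a description with no test. The YAP7d libraries held 8, 8 and 21 non-dividing cells. In the fit without dividing cells only the third reached the minimum of 10 cells, so that 1 YAP7d library stood against the others and its spread was assumed to be like theirs; Kdr, Nrp1 and Tek passed against WT and Kdr and Nrp1 against YAP3d. With no minimum, chosen after the data were seen, all 3 libraries entered, and Kdr, Nrp1 and Tek passed in both comparisons (against WT, log2 fold changes of -0.86, -0.93 and -0.99 with adjusted p of 0.00749, 0.00302 and 0.0117, edgeR). What division and depth add to the difference was not tested further.

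Clusters of endothelial-like cells differed in the receptors, which is a description with no test. Cluster 23, mostly of YAP7d, had Kdr at 747 CPM and Flt4 at 309 CPM. The large clusters 8 and 9 had Kdr at 1530 and 1527 CPM and Flt4 at 377 and 375 CPM. Cluster 5, of 152 WT, 146 YAP3d and 9 YAP7d cells, had Kdr at 867 CPM, Tek at 187 CPM and Flt4 at 233 CPM. Its cells had the lowest mean depth of these clusters and those of cluster 23 the highest, and the part of depth was not tested.

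Within WT and YAP3d, sub-clusters that carried the markers of pericentral (62 cells), periportal (144 cells) and larger vessel endothelium (14 cells) were set side by side. None of the receptors is among the markers that named them. Kdr was at 1519 CPM (exact Poisson 95% interval 1419 to 1625) in periportal-like, 1293 (1172 to 1422) in pericentral-like and 235 CPM (139 to 372) in vessel-like cells, where only the vessel-like interval stands apart. Flt4 was at 383 CPM (333 to 437), 197 CPM (152 to 252) and 78.4 CPM (28.8 to 171), so that periportal-like cells lay above the other 2, whose intervals overlapped. Nrp2 was at 286 CPM (244 to 334), 197 CPM (152 to 252) and 78.4 CPM (28.8 to 171), with overlap between neighbours and none between the first and the last. Nrp1 was at 1559 CPM (1457 to 1665), 1135 CPM (1022 to 1257) and 614 CPM (451 to 817), with no overlap. Flt1 (512, 577 and 510 CPM), Tek (338, 423 and 405 CPM) and Tie1 (246, 275 and 235 CPM) had overlapping intervals in the 3 sub-clusters. Intervals cover counting error only, the vessel-like values rest on 6 to 47 UMIs a gene, and the top genes of the pericentral-like sub-cluster include the vessel markers Vwf and Edn1.

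**Figure D4:**
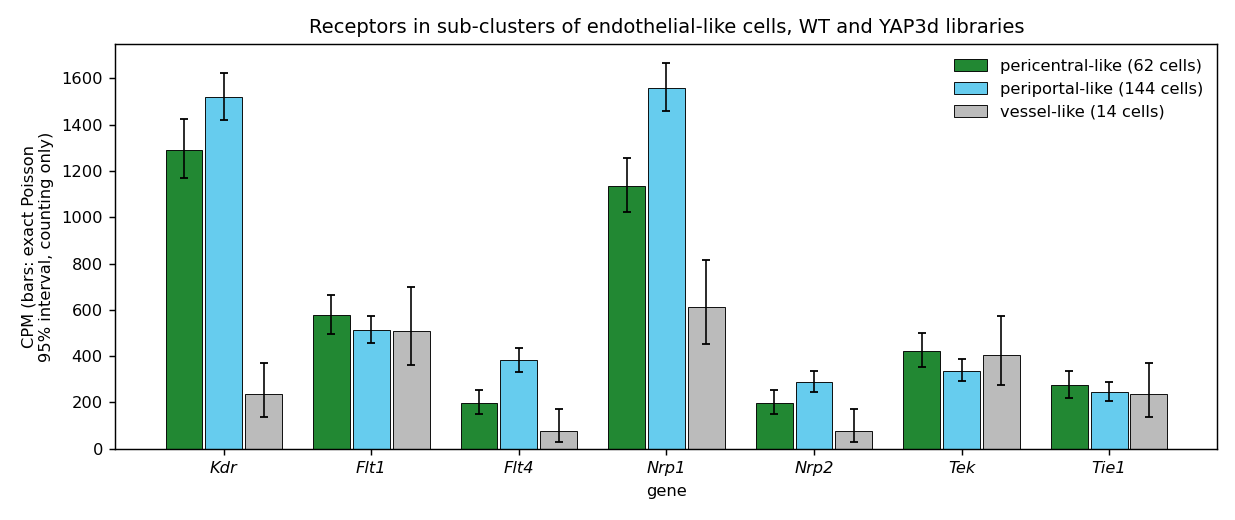
CPM (y axis) of the 7 receptors in pericentral-like, periportal-like and vessel-like sub-clusters of endothelial-like cells from WT and YAP3d libraries; bars are sums over cells and error bars exact Poisson 95% intervals. The intervals of all 3 sub-clusters are apart for Nrp1, and those of periportal-like and vessel-like cells are apart for Kdr, Flt4 and Nrp2, while the intervals of Flt1, Tek and Tie1 overlap.

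With all libraries summed, the 7 receptors were at 0 to 12.0% of their endothelial CPM in the other classes, and Nrp1 stood out in several of them. Shares were higher in some small groups of cells, such as the 71 neutrophil-like cells of YAP3d, with Tie1 at 33.1% (13 UMIs) and Tek at 17.9% (10 UMIs). Endothelial-like cells held 94.0 to 96.4% of the UMIs of each receptor in WT and 90.1 to 93.8% in YAP3d. In YAP7d, where they are 3.49 to 4.99% of cells, they held 88.1% for Kdr, 88.8% for Flt4, 91.0% for Tek, 82.9% for Tie1, 81.1% for Flt1 and 73.0% for Nrp2. For Nrp1 they held 35.1% there (867 of 2470 UMIs), against 94.5% in WT, while macrophage-like cells held 35.3% and monocyte-like cells 19.8%. With the libraries of a group summed, Kdr in B cell-like, T cell-like and macrophage-like cells was at 26.2, 28.4 and 36.5 CPM in WT. The sums were 41.2, 31.8 and 31.8 CPM in YAP3d and 1.74, 1.94 and 4.67 CPM in YAP7d. By library, Kdr in T cell-like cells was at 6.63 and 34.4 CPM in WT and 0 to 2.35 CPM in YAP7d. In YAP3d 4 it was at 45.5 CPM, but in YAP3d 1, 2 and 3 at 1.72 to 12.2 CPM, which overlaps YAP7d. In B cell-like cells it was at 0 and 30.3 CPM in WT, 0 to 44.9 in YAP3d and 0 to 3.16 in YAP7d. The groups thus overlapped there, and the B cell-like and T cell-like sums were led by WT 2 and YAP3d 4. Over all libraries summed, Nrp1, which is known from dendritic cells and some macrophages too, was at 63.4 CPM in macrophage-like, 61.5 in monocyte-like, 55.5 in conventional dendritic-like and 76.4 CPM in plasmacytoid dendritic-like cells. In B cell-like and T cell-like cells it was at 18.5 and 19.0 CPM. The stellate or mesenchymal-like cells, at 89.2 CPM, were 22 in all.

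**Figure D5:**
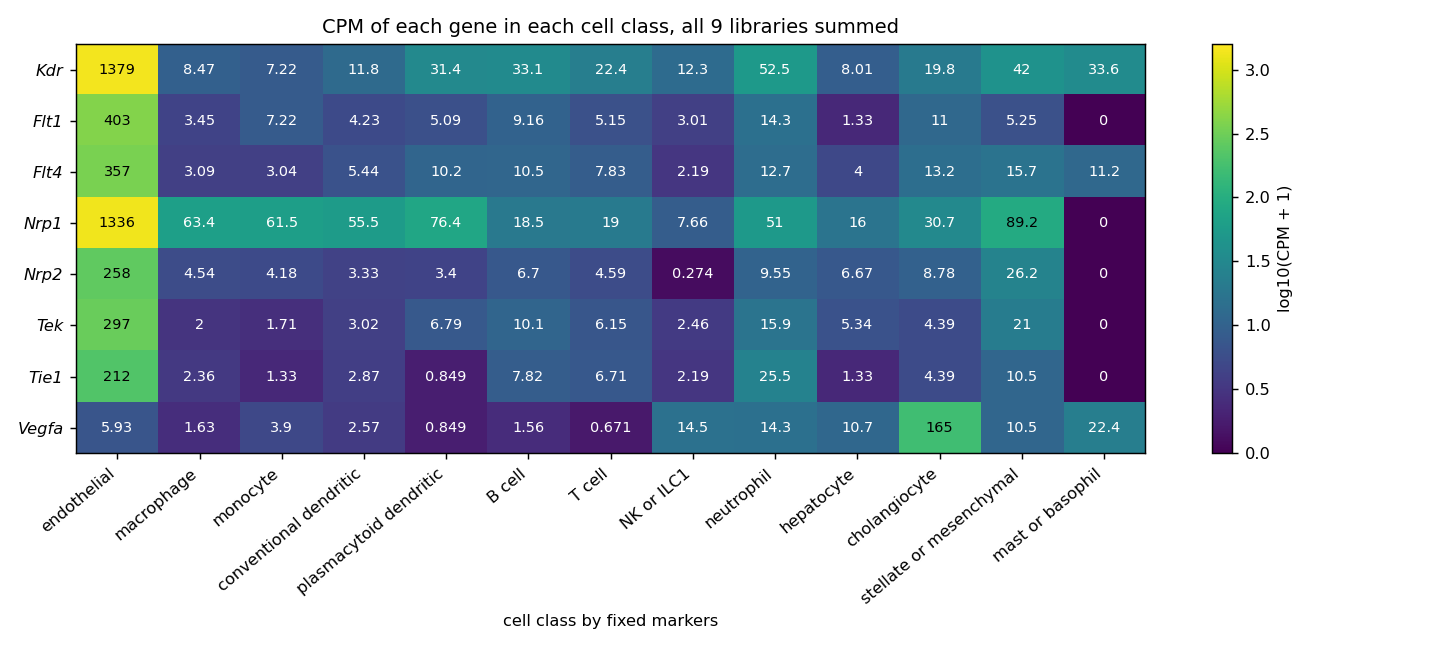
CPM of the 8 genes (rows) in 13 cell classes (columns), all libraries summed; colour is log10 of CPM plus 1 and the CPM is printed in each cell. The receptors are highest in endothelial-like cells, Nrp1 is raised in myeloid and plasmacytoid classes, and Vegfa is highest in cholangiocyte-like cells at 165 CPM.

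Nrp1 in macrophage-like cells was at 89.3 and 92.2 CPM in WT, 103, 59.9, 53.6 and 87.8 CPM in YAP3d and 74.5, 76.8 and 53.3 CPM in YAP7d. YAP3d overlapped both other groups, while every YAP7d library lay under both WT libraries. No comparison of Nrp1 passed there (log2 fold change of YAP7d against WT -0.50, SE 0.33, adjusted p = 0.460, edgeR). Relative to the endothelial level of the same library this was 6.49 and 6.50% in WT, 3.79 to 6.46% in YAP3d and 8.82 to 11.3% in YAP7d. In B cell-like cells of YAP7d Nrp1 had 2 UMIs in 133 cells. Kdr in macrophage-like cells was at 115 and 27.9 CPM in WT (9 and 20 UMIs), 0 to 54.3 CPM in YAP3d and 6.28, 4.22 and 4.41 CPM in YAP7d (14, 11 and 42 UMIs). It was the only receptor called in another class (YAP7d against WT, log2 fold change -3.33, SE 0.72, adjusted p = 0.0256, edgeR), out of 9 pairs of gene and class tested. Macrophage-like cells of the groups lay largely in different clusters. Cluster 14, with Kdr at 45.7 CPM, held 60 WT, 71 YAP3d and 0 YAP7d cells, whereas clusters 15 and 16, with Kdr at 4.88 and 7.73 CPM, held 399 and 380 YAP7d cells, 30 and 74 YAP3d cells, and 12 and 25 WT cells. Within cluster 15 Kdr was at 19.8 CPM in WT (2 UMIs, exact Poisson 95% interval 2.39 to 71.3) and 3.74 CPM in YAP7d (2.51 to 5.38), and within cluster 16 at 138 CPM in WT (8 UMIs, 59.4 to 271) and 5.77 CPM in YAP7d (4.08 to 7.92), given with no test. In YAP7d against WT, 1.81% of all genes were called in macrophage-like, 0.129% in monocyte-like and 0% in conventional dendritic-like and T cell-like cells; against YAP3d these shares were 0.446, 0, 0.0539 and 0.961%, and in YAP3d against WT 0% in all 4. The fall of Kdr went along with the smaller share of endothelial-like cells in the YAP7d libraries given above, and its call was lost without WT 1, WT 2 or YAP7d 2, with adjusted p of 0.0960, 0.315 and 0.0610, and with the term for Gm10709 (log2 fold change -0.89, adjusted p = 0.9999). The part of free endothelial RNA in it was not tested. Flt1 in monocyte-like cells, where it is known as a VEGF and placental growth factor receptor, was at 124 and 21.9 CPM in WT (11 and 9 UMIs), 0 to 84.9 CPM in YAP3d and 6.72, 10.7 and 3.32 CPM in YAP7d; it did not pass (log2 fold change -3.41, SE 0.87, adjusted p = 0.213).

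Vegfa, the ligand, was sparse, with 303 UMIs over all cells. Endothelial-like cells held 8 and 13 of them in WT, 0, 0, 3 and 22 in YAP3d and 1, 0 and 8 in YAP7d, too few for the test. The highest level was in cholangiocyte-like cells, which are 49 cells with 75 UMIs, or 165 CPM (exact Poisson 95% interval 130 to 206). By library these were at 348 and 177 CPM in WT, 691, 227, 346 and 106 CPM in YAP3d and 127, 154 and 27.1 CPM in YAP7d, each from 1 to 21 UMIs. YAP7d lay under both WT libraries, YAP3d overlapped both groups, and the counts are too few for a test. NK or ILC1-like cells held 53 UMIs, of which 51 were in cluster 7 (19.0 CPM) and 2 in cluster 0 (2.05 CPM). Hepatocyte-like cells, in which Cre is active, were 115 in all and only 3 in WT, with 0 Vegfa UMIs in WT, 2 in YAP3d and 6 in YAP7d; with so few cells a change in hepatocyte Vegfa could not be measured.

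Of the 39 further genes of the pathways, 20 were abundant enough for the test in endothelial-like cells. Against WT, 4 were lower and 2 higher in YAP7d, where 8.74% of all genes were called lower and 9.69% higher. Against YAP3d, 5 were lower and 2 higher, where these shares were 8.15 and 8.96%, and 0 of 20 were called in YAP3d against WT. The median log2 fold change of the 20 genes in YAP7d against WT was -0.25. The largest fall was that of Ptprb, the endothelial phosphatase that acts on Tek. Ptprb was at 2239 and 1672 CPM in WT, 1603, 1440, 1877 and 1575 CPM in YAP3d and 515, 356 and 291 CPM in YAP7d. No YAP7d library overlapped the others, and Ptprb fell by 2.34 against WT (SE 0.20, adjusted p = 3.95e-06, edgeR) and by 2.05 against YAP3d (SE 0.18), passing in all 24 and 25 alternatives.

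Among the oxygen sensing genes, Epas1 encodes a hypoxia-inducible factor of endothelial cells and Egln1 a hydroxylase that marks such factors for decay. Epas1 was at 330 and 299 CPM in WT, 281, 194, 256 and 303 CPM in YAP3d and 90.3, 49.6 and 113 CPM in YAP7d. It fell by 1.74 against WT (SE 0.27, adjusted p = 0.000327, edgeR), a call lost with the term for Gm10709 (adjusted p = 0.0575). Egln1 was at 37.8 and 32 CPM in WT and 9.03, 18.0 and 12.3 CPM in YAP7d. It fell by 1.37 against WT (SE 0.35, adjusted p = 0.0137, edgeR). Egln1 did not pass in 7 of 21 alternatives, among them DESeq2 (adjusted p = 0.113), the term for Gm10709 (0.246) and leaving out YAP7d 3 (0.0927). Leaving out WT 1, which left WT 2 alone in its group, also ended the call. Both genes thus kept under all WT and YAP3d values in each YAP7d library. Hif1a was tested and not called, and Vhl and Egln3 were too low for the test.

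Of the responsive genes, Dll4, the Notch ligand that VEGF induces in sprouting cells, was at 70.9 and 88.2 CPM in WT, 62.7 to 87.7 CPM in YAP3d and 54.2, 31.6 and 27.9 CPM in YAP7d. It fell by 1.17 against WT (SE 0.28, adjusted p = 0.00850, edgeR), a call lost in 7 of 23 alternatives, among them leaving out WT 2 (adjusted p = 0.0901) or YAP7d 3 (adjusted p = 0.0986) and cells of 4000 to 10000 UMIs (-0.64, adjusted p = 0.445). Hlx, a homeobox gene known to respond to VEGF, moved the other way. It was at 59.1 and 96.8 CPM in WT and between 131 and 203 CPM in the YAP7d libraries. Its log2 fold change was 0.96 (SE 0.27, adjusted p = 0.0201), and the call was lost in 7 of 24 alternatives, among them leaving out WT 1 (adjusted p = 0.169) or YAP7d 2 (adjusted p = 0.0546) and cells of 4000 to 10000 UMIs (0.45, adjusted p = 0.533). Nos3, Plcg1 and Foxo1 were tested and not called.

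Of the receptor partners, Mcam, a membrane protein described as a Kdr partner, was at 69.8 and 95.5 CPM in WT, 90.2, 180, 104 and 101 CPM in YAP3d and 172, 144 and 196 CPM in YAP7d. It rose by 1.10 against WT on the log2 scale (SE 0.27, adjusted p = 0.00970, edgeR) and not against YAP3d (0.68, adjusted p = 0.0532), where YAP3d 2 overlapped YAP7d. The call against WT was lost in 4 of 24 alternatives: without WT 1 (adjusted p = 0.0929) or YAP7d 3 (adjusted p = 0.0507), with the term for Gm10709 (0.372) and with thinned cells (0.0514). Robo4, an endothelial guidance receptor, was at 182 and 229 CPM in WT, 220 to 272 CPM in YAP3d and 99.4, 122 and 165 CPM in YAP7d. It fell by 0.78 against YAP3d (SE 0.20, adjusted p = 0.0153) and was not called against WT (adjusted p = 0.0933); the call against YAP3d was lost in 7 of 25 alternatives, among them leaving out YAP7d 1 (adjusted p = 0.0786) or YAP7d 2 (adjusted p = 0.0699) and cells of 4000 to 10000 UMIs (-0.54, adjusted p = 0.201). Gipc1, an adaptor that binds the tail of Nrp1, was at 78.4 to 125 CPM in YAP3d and 122, 198 and 140 CPM in YAP7d. Its log2 fold change against YAP3d was 0.72 (SE 0.21, adjusted p = 0.0281), lost in 12 of 25 alternatives, among them leaving out YAP3d 2, YAP3d 3, YAP7d 2 or YAP7d 3 (adjusted p = 0.0522, 0.0740, 0.0866 and 0.0561) and cells of 4000 to 10000 UMIs (0.38, adjusted p = 0.555), and against WT it was 0.68 (adjusted p = 0.0596).

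The other ligands were low. Vegfb was at 39.0 and 27.2 CPM in WT, 27.7 to 32.4 CPM in YAP3d and 40.6, 13.5 and 24.5 CPM in YAP7d endothelial-like cells, and was not called (YAP7d against WT, log2 fold change -0.27, SE 0.36, adjusted p = 0.686, edgeR). Angpt2, the antagonist that endothelial cells make themselves, had 79 of its 109 UMIs in this class, at 4.51 to 16.7 CPM in the YAP7d libraries and 13 and 9.07 CPM in WT, too few for the test. Angpt1, the agonist of Tek, had 52 UMIs in all, of which 24 were in cholangiocyte-like cells, 18 in conventional dendritic-like cells and 2 in endothelial-like cells. Pgf had 2 UMIs in endothelial-like cells.

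Over the 9 libraries, the genes most like each receptor in log2 CPM were taken from 3166 genes of at least 50 CPM. The receptors themselves and all class markers were left out of that ranking. This is a description in which the points share their cells and depth. For Kdr these were Crim1 (Pearson r = 0.98), Ptprb (r = 0.98) and Gata4 (r = 0.98), and for Tek they were Rfk (r = 0.995), Hes1 (r = 0.98) and Slc40a1 (r = 0.98). For Flt1 they were Cltc, Cmtm8 and Eif4a2, and for Nrp1 Cpne2, Cyp4b1 and Cmtm8. For Nrp2 they were mt-Atp8, Arhgef12 and 1700020I14Rik, and for Tie1 Psap, Chst2 and Ctnnd1. The nearest genes to Flt4 were Myadm (r = 0.80), Tuba1a (r = 0.78) and Suds3 (r = 0.77), less close than for any other receptor. Group means were not removed, so r largely restates which genes shifted together in YAP7d and adds no separate result. Among the receptors themselves, Kdr had r = 0.99 with Flt1, 0.97 with Nrp1, 0.95 with Tek and 0.26 with Flt4.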

How the data were processed

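Liver cells of 2 WT, 4 YAP3d and 3 YAP7d libraries were used, grouped by the labels. The authors prepared these libraries with the Chromium v2 kit per the study's methods, aligned to mm10 and counted with Cell Ranger 2.1.1 (Seurat 2 is also listed). The deposited values are raw UMI counts per gene and cell, 63380159 in all and 1288940 to 25056881 per library.

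Of 8562 cells, 35 with under 200 genes were removed; 353 cells over 10% mitochondrial counts were kept. Scrublet called 60 doublets (0.704%), which were kept and left out as an alternative. Counts were scaled to 10000 per cell, logged and clustered on 2426 variable genes without members, pathway and cycle genes (scanpy 1.11.5; 30 components, 15 neighbours, Leiden resolution 1). Clusters were named from 120 of 122 listed markers found; sub-cluster resolution (1.5) and the Gm10709 limit (100 CPM) were set after the data were seen. UMIs were summed per library and class (at least 10 cells) and tested with edgeR 4.0.16 (TMM, filterByExpr, quasi-likelihood, all groups in 1 fit, Benjamini-Hochberg) in R 4.3.3. Fold changes are log2. Members, lists and tests were chosen with earlier results of these data known. All 8 members and the pathway genes called, with Angpt1, Angpt2, Pgf and Vegfb, were named. For each receptor its 3 most correlated genes were named too, with members and class markers left out.

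On simulated endothelial counts of YAP7d against WT (7468 genes), 29% of genes changed by a log2 fold of 1 and 90% of those changed by 2 were recovered, with 4.8% of calls false. Alternatives were RLE scaling, no count filter, DESeq2 1.42.0, each library left out, a replicate block, stricter cells, resolution 0.5, no doublets, a Gm10709 term, a rule per cell, no dividing cells and no vessel-like cells. Chosen after seeing the data were thinned cells, no dividing cells with no minimum of cells, cells of 4000 to 10000 UMIs, leaving out a sub-cluster of 50 cells led by macrophage markers, and libraries of 1 Gm10709 side. Intervals (exact, 95%) cover counting error only. Promoters and coordinates are from RefSeq GRCm38.p6, matched by symbol for all 8.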

Additional observations from a re-analysis of the deposited data

Results flagged for a closer look

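Among 19 sets of 4 YAP3d libraries, 1 for each named gene with UMIs in them, 3 had a library whose gap to the nearest other library exceeded the limit of Dixon's test; chance gives about 1 in 20. Kdr in YAP3d 2 was the lowest of its group at 1398 CPM, with the other 3 at 1529 to 1553 CPM. Mcam in YAP3d 2 was the highest at 180.0 CPM, with the others at 90.2 to 104 CPM. Angpt1 in YAP3d 3 was at 1.79 CPM, which is 1 UMI, with 0 in the other 3; a single UMI passes the limit whatever the library, and without it 2 of 18 sets did so. YAP3d 2 is the YAP3d library with the fewest endothelial-like cells (51) and the largest share of dividing ones (25.5%).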

How the results depend on the processing

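No alternative turned the direction of a called gene. In endothelial-like cells, the count of receptors called in YAP7d against WT was 5, and 19 of 24 alternatives gave 4 or 5; it was 2 with a term for Gm10709, 3 with the rule per cell, 3 without dividing cells, 3 likewise with no minimum of cells and 3 among cells of 4000 to 10000 UMIs, and 4 to 5 with 1 library left out. Against YAP3d it was 6, then 2 without dividing cells, 3 likewise with no minimum of cells, 2 among cells of 4000 to 10000 UMIs and 4 to 6 with 1 library left out. Without dividing cells YAP7d 3 was the only YAP7d library with 10 cells, and without 1 WT library the other stood alone; a lone library was assumed to vary like the rest. In YAP3d against WT it was 0 in all 25 alternatives for receptors and for pathway genes.

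The pathway list gave 6 calls in YAP7d against WT. It gave 1 with the Gm10709 term, 3 without dividing cells and with no minimum of cells, 3 among cells of 4000 to 10000 UMIs, 2 with thinned cells and 3 to 7 with 1 library left out. In YAP7d against YAP3d it gave 7 calls, then 2 with the Gm10709 term, 2 with the rule per cell, 3 without dividing cells, 3 likewise with no minimum of cells, 1 among cells of 4000 to 10000 UMIs, 3 with thinned cells, 3 on 1 side of Gm10709 and 4 to 8 with 1 library left out. Thinning and the depth window also left fewer genes to test, and the window left only 11, 10 and 21 YAP7d cells.

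In other classes the 1 call in YAP7d against WT became 10 with no count filter (48 pairs of gene and class in place of 9), 2 by DESeq2, 0 with the Gm10709 term, and 0 to 5 with 1 library left out. The 0 calls in YAP7d against YAP3d became 14 with no filter and 0 to 5 with 1 library left out.

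Libraries of different groups share replicate numbers. The deviations of same-numbered libraries from their group means correlated at -0.165 to 0.129, so the numbers were not taken to pair the samples. With a replicate block, the receptor counts were 5 against WT and 5 against YAP3d, the pathway counts 4 and 3, and the other classes gave 2 calls against WT.

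Over single genes, 1277 alternative values kept their side of the threshold, 130 lost a call and 31 gained one. The limits are the 111 YAP7d endothelial-like cells, the 2 WT libraries, and the depth, division state and Gm10709 level that go with YAP7d.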
